A study of Mus musculus with 43 samples.

Results

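Stem-like organoid cells were the single cells of irradiated mouse intestinal organoids that held at least 1 unique molecular identifier (UMI, 1 counted RNA molecule) of Lgr5 and at least 20 UMIs of Olfm4 per 10000 UMIs of the cell. Of 12323 cells kept in 4 libraries, 1543 met both conditions, or 12.5%. The organoids were grown from the intestine of wild-type C57BL/6 mice, given 4 Gy of ionizing radiation on day 4 of culture and collected on day 8. They received vehicle for the last 24 h (the 0 h library) or 1 ng/mL TGFB1 for the last 6, 15 or 24 h, with 1 library for each time, so all 4 libraries share the irradiation and none is a non-irradiated control. Single cells were released with TrypLE, a trypsin-like enzyme, and sequenced with the PIPseq T2 kit, which captures cells in templated droplets. Bulk RNA-seq of irradiated organoids of the same strain supplied a second set of samples, with 3 libraries each for vehicle and for 2 ng/mL TGFB1 (24 h from day 6) at a day 7 and at a day 11 collection. Crypt cells sorted for the Ki67-RFP reporter (strain Mki67tm1.1Cle/J) were available as 1 library from a non-irradiated mouse and 2 libraries taken 56 h after 12 Gy to the whole body.

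The intestinal lining is renewed by crypt base columnar stem cells. They carry the R-spondin receptor Lgr5, which keeps Wnt receptors at the cell surface, and depend on Wnt and Notch signals. Olfm4 is a secreted glycoprotein made by these cells and their early progeny and is controlled by Notch. After radiation the crypt can also enter a regenerative state, in which the secreted chaperone Clu, members of the Sprr and Anxa families and targets of the coactivator YAP are expressed, and TGFB1 is a cytokine that signals through SMAD transcription factors to its own feedback inhibitors such as Smad7, Skil and Pmepa1.

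Promoter sequences are given for a few genes that the results turn on, to show the motif letters that were searched in the stem, Wnt and YAP lists. They are the 250 bases before the start site in the RefSeq promoter table (GRCm38.p6), printed 5′ to 3′ on the strand of the gene. Capitals mark every match to ATCAAAG, a short form of the TCF/LEF motif, or to GGAATG, the TEAD motif through which YAP acts, each searched on both strands (CTTTGAT and CATTCC). Tnfrsf19 (chr14:61037988-61038237, minus strand; the other of its windows has no match) and Sp5 (chr2:70474673-70474922, plus strand) were higher in the stem-like cells and are shown because each is the 1 match to the TCF/LEF letters in its list, of 16 matched promoters of the stem list (6.25%) and 10 of the Wnt list (10.0%).
Tnfrsf19: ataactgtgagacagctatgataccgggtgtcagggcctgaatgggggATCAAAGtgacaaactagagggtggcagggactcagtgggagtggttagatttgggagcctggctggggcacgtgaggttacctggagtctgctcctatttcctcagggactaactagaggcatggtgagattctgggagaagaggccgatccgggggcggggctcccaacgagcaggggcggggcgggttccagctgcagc
Sp5: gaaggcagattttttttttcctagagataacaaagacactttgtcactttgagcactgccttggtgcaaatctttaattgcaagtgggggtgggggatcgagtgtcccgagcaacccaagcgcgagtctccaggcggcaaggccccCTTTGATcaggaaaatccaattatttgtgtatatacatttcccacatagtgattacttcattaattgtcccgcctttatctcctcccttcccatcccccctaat
Ccn1 (chr3:145649986-145650235, minus strand), Amotl2 (chr9:102717554-102717803, plus strand) and Ajuba (chr14:54577662-54577911, minus strand) are YAP targets that were higher in the stem-like cells than in the other cells and, within the stem-like cells, in the 24 h library. The window of Amotl2 holds a match to each motif.
Ccn1: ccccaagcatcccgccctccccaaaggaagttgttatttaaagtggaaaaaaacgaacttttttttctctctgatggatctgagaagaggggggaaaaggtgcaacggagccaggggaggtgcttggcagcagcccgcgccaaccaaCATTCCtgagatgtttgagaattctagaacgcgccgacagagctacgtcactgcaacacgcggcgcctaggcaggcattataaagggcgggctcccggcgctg
Amotl2: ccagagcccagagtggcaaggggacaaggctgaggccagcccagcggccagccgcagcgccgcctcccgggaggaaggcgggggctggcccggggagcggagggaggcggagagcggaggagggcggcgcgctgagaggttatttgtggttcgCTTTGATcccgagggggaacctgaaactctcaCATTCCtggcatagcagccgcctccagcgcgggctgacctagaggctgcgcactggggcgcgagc
Ajuba: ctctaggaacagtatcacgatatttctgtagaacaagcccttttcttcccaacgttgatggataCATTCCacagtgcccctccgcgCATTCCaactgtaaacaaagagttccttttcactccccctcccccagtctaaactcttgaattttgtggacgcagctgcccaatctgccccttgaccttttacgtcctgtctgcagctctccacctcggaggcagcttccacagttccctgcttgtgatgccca
The TCF/LEF letters stood in the promoters of 38 of the 986 matched genes that were at least 2-fold higher in stem-like cells than in the other cells (3.85%), and in 1005 of 27025 genes in the table (3.72%). The TEAD letters stood in 7 of the 9 YAP target promoters that could be matched (77.8%), in 0 of the 16 stem list and 1 of the 10 Wnt list promoters, and in 3880 of the 27025 genes (14.4%). Among the genes of stem-like cells that were at least 2-fold higher at 24 h, 14 of 72 matched promoters held the TEAD letters (19.4%) and 0 the TCF/LEF letters. A match describes these letters in this window, and binding was not measured.

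The gate found stem-like cells in every library. There were 417 of 2932 cells at 0 h (14.2%, 95% exact binomial interval 13.0 to 15.5%), 437 of 4283 at 6 h (10.2%, 9.31 to 11.1%), 376 of 2890 at 15 h (13.0%, 11.8 to 14.3%) and 313 of 2218 at 24 h (14.1%, 12.7 to 15.6%). These intervals, and all Poisson intervals below, cover counting error only, and no share was tested because each time has 1 library. Depth differed between libraries and classes: stem-like cells had a median of 8979, 7929, 8261 and 14215 UMIs at 0, 6, 15 and 24 h, and the other cells 8079, 6579, 7655 and 9590. With every cell thinned to 2000 UMIs (6 cells below that depth were left out), 5.87, 3.86, 5.05 and 5.18% of cells still met the rule.

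Both markers set the gate, so their levels describe it and support nothing else. Olfm4 had a median of 76.5, 75.2, 86.3 and 69.8 UMIs per 10000 in the stem-like cells of the 4 libraries. At the edge of the gate, 12, 14, 4 and 12 stem-like cells lay between 20 and 25, and 22, 9, 9 and 14 cells with a Lgr5 UMI lay between 15 and 20. Lgr5 was sparse: 199, 279, 192 and 86 stem-like cells held exactly 1 UMI of it. The Olfm4 condition alone was met by 26.3, 28.1, 27.1 and 20.5% of cells, and 54.1, 36.3, 48.0 and 68.8% of those held Lgr5. After thinning the latter were 21.9, 13.5, 18.2 and 25.2%, so 24 h remained the highest and 6 h the lowest.

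**Figure D1:**
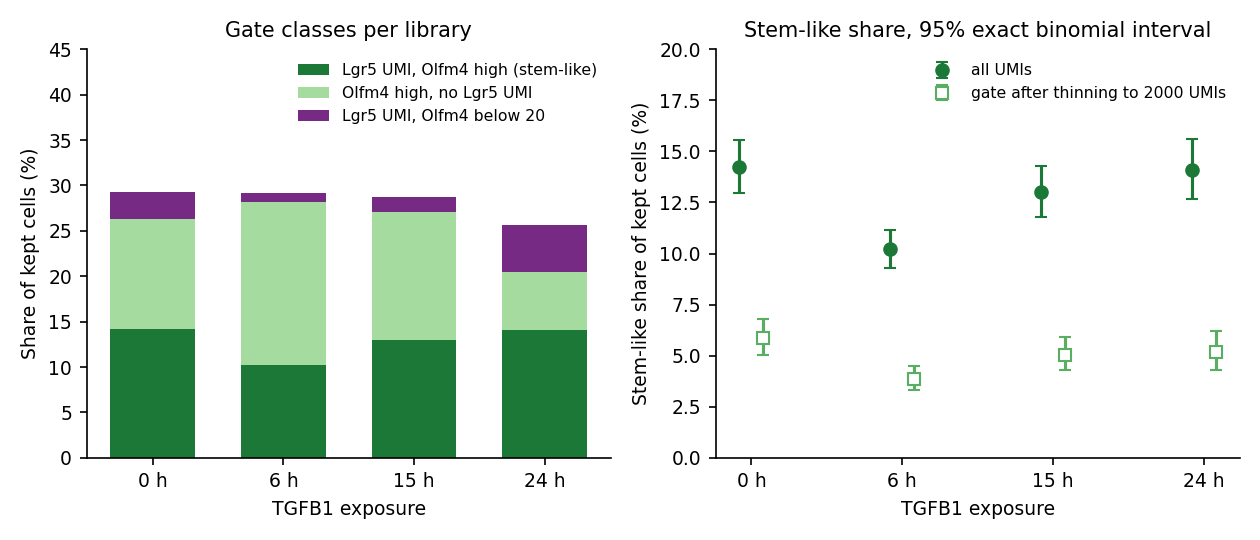
The left panel stacks the share of kept cells (%) in each library (hours of TGFB1) by gate class, and the right panel shows the stem-like share (%) from all UMIs and after thinning to 2000 UMIs, with 95% exact binomial intervals. The stem-like share is lowest at 6 h on both scales (10.2% and 3.86%), and the Olfm4-high share is lowest at 24 h (20.5%).

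The kept organoid cells held 2.63e+07 to 3.24e+07 UMIs per library. Of the barcodes, 60 were removed by the filters and 1 occurred in more than 1 organoid library, in no stem-like cell. Scrublet, a doublet caller, marked 1.28 to 3.43% of stem-like cells and 0.367 to 1.35% of the others. Median mitochondrial shares were 2.93, 3.22, 3.81 and 4.09% in stem-like cells and 2.96, 3.24, 4.47 and 5.13% in the others. Tuft, immune and mesenchymal markers were near 0 in the stem-like cells. The summed level of 10 tuft markers was 3.20 to 7.14 CPM (UMIs of the genes per 1000000 UMIs of the class) with 3 to 5 markers at 0, that of 7 immune markers was 1.30 to 7.44 CPM with 4 or 5 at 0, and that of 8 mesenchymal markers was 0.498 to 3.44 CPM with 2 to 6 at 0. The 13 enteroendocrine markers summed to 31.0 to 54.2 CPM and the 8 goblet markers to 245 to 281 CPM. The 10 Paneth markers summed to 1077, 722, 836 and 1267 CPM in stem-like cells and 414, 538, 690 and 994 CPM in the other cells. Per cell the medians were close, at 3.47, 3.98, 5.78 and 6.65 UMIs per 10000 in stem-like cells and 3.01, 3.50, 5.52 and 6.91 in the others, with up to 656 in single stem-like cells.

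Compared with all other cells of their library, the stem-like cells had more RNA of Wnt-linked stem cell genes and of the cell cycle, and less RNA of absorptive enterocytes and of most regenerative genes. Tnfrsf19, a receptor of the TNF family and a Wnt target, had the largest difference among the higher genes under the naming rule. Fabp1, the fatty acid binding protein of enterocytes, was more than 10 times lower in every library. Summed UMIs of the classes within each of the 4 libraries were compared with edgeR's quasi-likelihood test (library as a term, Benjamini-Hochberg adjustment). The 4 libraries served as replicates although they differ in TGFB1 time, nothing says that they came from separate cultures, and the p-values measure only the spread between them.

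With this test 9054 of 13975 genes differed (64.8%), 4601 higher (32.9%) and 4453 lower (31.9%) in stem-like cells. At least 2-fold differences were found for 1288 genes higher (9.22%) and 1938 lower (13.9%), and the median log2 difference over all genes was 0.01. The cells were chosen by 2 genes of the same profiles, so genes that go with Lgr5 and Olfm4 had to differ, and the counts of stem and enterocyte genes are a description of the gate.

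Among 22 stem cell genes, 21 were higher and 1 was lower, with a median log2 difference of 1.69. Tnfrsf19 stood at 46.9, 42.8, 58.7 and 94.8 CPM in stem-like cells at 0, 6, 15 and 24 h, against 4.53, 5.07, 5.02 and 6.99 CPM in the other cells. The ranges did not overlap, and the log2 difference was 3.29 ± 0.11 (SE, n = 4 libraries, edgeR adjusted p = 1.1e-07). Igfbp4, a secreted binding protein of insulin-like growth factors, had 203, 421, 474 and 481 CPM against 30.3, 96.0, 81.2 and 75 CPM. Its difference was 2.35 ± 0.10, and the lowest stem-like value was above the highest of the other cells. Smoc2 (log2 1.77 ± 0.19), a matrix protein of the crypt base, and Ascl2 (1.93 ± 0.09), the transcription factor of the stem cell program, were also higher in 4 of 4 libraries. Clca4b was the member that was lower (log2 difference −2.42 ± 0.42, edgeR adjusted p = 0.0060).

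Of the Wnt target and feedback list, 14 of 17 genes could be tested. There were 11 higher and 2 lower, with a median of 1.47. Axin2, the scaffold that limits Wnt signalling, had 232, 189, 215 and 233 CPM in stem-like cells and 47.4, 48.5, 40.4 and 34.7 CPM in the others (log2 2.19 ± 0.11). It was at like levels at all 4 times in the stem-like cells. Nkd1, another feedback inhibitor, differed by 3.21 ± 0.21, Rnf43, a ligase that removes Wnt receptors, by 1.71 ± 0.09, and Sp5 by 1.59 ± 0.14. Tcf7l2 (−0.55 ± 0.09) and the coreceptor Lrp6 (−0.26 ± 0.08, though its CPM was higher in 2 of 4 libraries) were lower, and Lgr4 did not pass (0.19 ± 0.08, edgeR adjusted p = 0.051). In the Notch list 7 of 10 tested genes were higher, with Hes1, the main Notch effector, at 1.23 ± 0.07, and the ligand Jag1 was lower (−0.89 ± 0.12). Of 4 genes named as reserve stem cell markers, Mex3a (1.91 ± 0.08), Bmi1 (0.69 ± 0.12) and Hopx (0.26 ± 0.06) were higher, and Tert was lower (−1.12 ± 0.15).

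All 20 S phase genes and all 23 mitosis genes were higher in stem-like cells, with medians of 1.35 and 1.23 on the log2 scale. Mki67, a protein of dividing cells, had 201, 231, 199 and 152 CPM in stem-like cells and 112, 133, 64.1 and 41.8 CPM in the others. The lowest stem-like value was above the highest of the other cells (log2 1.11 ± 0.18, edgeR adjusted p = 0.0013). The DNA replication helicase subunit Mcm5 differed by 1.43 ± 0.14. The target genes of p53 leaned the other way, with 3 of 17 higher and 10 lower. Cdkn1a, the inhibitor of cyclin-dependent kinases induced by p53, was at −1.67 ± 0.14 and the death receptor Fas at −2.54 ± 0.17.

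All 16 enterocyte genes were lower, between −4.44 and −1.52 on the log2 scale. Fabp1 had 653, 813, 378 and 254 CPM in stem-like cells against 9769, 10174, 10351 and 6949 CPM in the others (−4.44 ± 0.29, edgeR adjusted p = 0.00017). At 2000 UMIs per cell, 43.2, 47.8, 40.2 and 32.6% of stem-like cells still held a UMI of Fabp1, against 81.0, 79.5, 81.4 and 81.6% of the others. RNA free in the suspension can give such UMIs, and its part in the stem-like level was not tested. Reg3a (−4.54 ± 0.24), Reg3b (−4.31 ± 0.50) and Reg1 (−4.28 ± 0.15), secreted lectins of the villus side, and the lactase gene Lct (−4.24 ± 0.13) were lower to a like extent.

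Of 22 regenerative genes, 16 could be tested, and 14 were lower, with a median of −2.52. Clu was the 1 member that was higher. It had 23.0, 170, 554 and 1188 CPM in stem-like cells, and the log2 difference from the other cells was 0.92 ± 0.15 (edgeR adjusted p = 0.0010, higher in 4 of 4 libraries). S100a6, a calcium binding protein, showed the other pattern, with 42.1, 110, 320 and 726 CPM against 205, 350, 1067 and 1977 CPM (−1.93 ± 0.11). Per cell, the median of the whole list was lower in stem-like cells at 0, 6 and 15 h (3.50, 6.18 and 13.3 UMIs per 10000 against 8.27, 9.68 and 16.5) and higher at 24 h (24.7 against 21.5). The summed level of the list stayed lower in stem-like cells at each time, with 3091 CPM at 24 h against 5448 CPM in the other cells. Clu made up 1188 CPM of the stem-like sum at 24 h. Emp1, a membrane protein of regenerative cells, was at −2.18 ± 0.10. Of the YAP targets 6 of 10 were higher and 2 lower. Ccn1 and Ccn2, secreted matrix proteins and classic YAP targets, differed by 1.81 ± 0.07 and 1.97 ± 0.15, Ptpn14 by 2.56 ± 0.17, Amotl2 by 1.07 ± 0.10 and Ajuba by 0.79 ± 0.13. F3 (−1.69 ± 0.13) and Nuak2 (−0.58 ± 0.16) were lower. The list of TGFB response genes was split, with 8 of 22 higher, 7 lower and a median of 0.03, among them Id2 at 1.18 ± 0.10 and Smad7 at −0.48 ± 0.10.

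**Figure D2:**
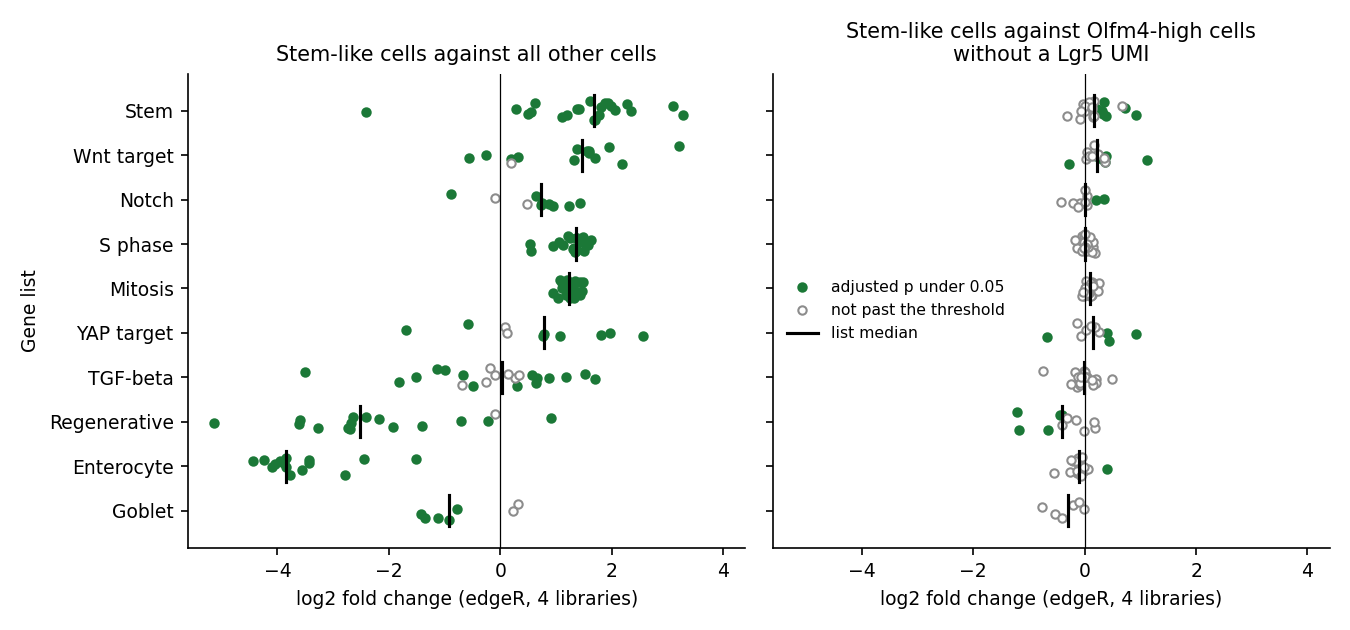
Log2 differences of the genes of each list (points) between stem-like cells and all other cells (left) and between stem-like cells and Olfm4-high cells without a Lgr5 UMI (right), where filled points have an edgeR adjusted p under 0.05 and bars are list medians. The S phase and mitosis lists lie above 0 on the left (medians 1.35 and 1.23) and have no filled point on the right.

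A stricter comparison asked what the Lgr5 UMI adds among cells that pass the Olfm4 condition. Olfm4-high cells without a Lgr5 UMI numbered 354, 768, 407 and 142. They differed little from the stem-like cells: of 11272 genes, 379 differed (3.36%), 174 higher (1.54%) and 205 lower (1.82%), and 6 (0.0532%) and 7 (0.0621%) by at least 2-fold. The call rests on the model: 72 genes passed with DESeq2, 78 of 8020 with cells thinned to 2000 UMIs, 202 of 9833 with cells between the UMI quartiles of the stem-like cells, and 0 with edgeR without the library term (254 at an unadjusted p under 0.05). The Lgr5 UMI is found more often in deeper cells. Thinning evened the UMIs counted per cell, but the classes were still those set at full depth. The quartile window limits differences in depth between the compared cells.

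Wnt-linked genes were among those that differed. Of the stem list 9 of 22 were higher and 0 lower with edgeR, and of the Wnt list 5 of 14 were higher and 1 lower. DESeq2 called 7 genes of the stem list and 3 of the Wnt list. Tnfrsf19 had 46.9, 42.8, 58.7 and 94.8 CPM in stem-like cells against 25.5, 22, 27.6 and 50.3 CPM in Olfm4-high cells without Lgr5, higher in each library although the ranges overlap (log2 0.93 ± 0.09, edgeR adjusted p = 5.1e-09). Nkd1 differed by 1.12 ± 0.16, Rnf43 by 0.36 ± 0.05 and Smoc2 by 0.31 ± 0.05, whereas the cyclin Ccnd2 was lower (−0.28 ± 0.05). Fstl1 (0.73 ± 0.09), Mia (0.67 ± 0.09), Cdo1 (0.64 ± 0.09), the complement protease Cfi (0.59 ± 0.07) and the transcription factor Tcf4 (0.53 ± 0.12) also led the list of higher genes. Tcf4 is not in the Wnt list, and Tcf7l2, which is, did not pass (0.13 ± 0.07, edgeR adjusted p = 0.40). Hes1 (0.20 ± 0.04) and Rbpj (0.35 ± 0.10), the DNA-binding partner of Notch, were the Notch genes that passed with edgeR. With DESeq2 0 genes of the Notch list passed.

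In the fit over the 4 libraries, cell cycle genes did not set the stem-like cells apart from these Olfm4-high cells. Of 20 S phase and 23 mitosis genes, 0 passed the edgeR test and 0 passed DESeq2, with log2 differences between −0.17 and 0.25. At an unadjusted p under 0.05 edgeR had 4 of the S phase and 5 of the mitosis genes. Mki67 was at 0.02 ± 0.06. By library, summed mitosis RNA was 2146, 2572, 2429 and 1793 CPM in stem-like cells against 2387, 2605, 1906 and 1376 CPM. It was thus lower at 0 and 6 h and higher at 15 and 24 h. The fit averages over these times, and the change of sign was not tested. Regenerative genes did differ with edgeR: 5 of 11 were lower and 0 higher, and 2 of the 11 passed DESeq2. S100a6 had 42.1, 110, 320 and 726 CPM in stem-like cells and 73.3, 155, 546 and 1041 CPM in cells without Lgr5 (−0.66 ± 0.05, edgeR adjusted p = 3.4e-11), lower in each library. Il1rn (−1.18 ± 0.21), Sprr1a (−1.22 ± 0.31), Anxa2 (−0.45 ± 0.08) and Emp1 (−0.40 ± 0.10) were the others. Clu did not pass (0.18 ± 0.08, edgeR adjusted p = 0.31). Of the YAP targets Ptpn14 (0.92 ± 0.21), Ccn1 (0.40 ± 0.04) and Ccn2 (0.43 ± 0.12) were higher and F3 was lower (−0.68 ± 0.12). Of the 10 genes known to respond to cell dissociation, 4 were higher in the stem-like cells and 0 lower. DESeq2 called 1 of the YAP targets and 2 of the dissociation genes. Nr4a1, an immediate early transcription factor, was at 0.44 ± 0.06. Rps7-ps3 and Rpl36a-ps1, which were lower, are near-copies of ribosomal protein genes, and their counts are uncertain.

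Cells with a Lgr5 UMI that fell below the Olfm4 condition were few (89, 46, 47 and 113) and lay much nearer to enterocytes. Against them 3037 of 10828 genes differed (28.0%), 1268 higher in stem-like cells (11.7%) and 1769 lower (16.3%). Differences of at least 2-fold were found for 254 higher (2.35%) and 730 lower (6.74%). All 16 enterocyte genes were lower (median −2.87) and 8 of 11 regenerative genes were lower (median −1.91), whereas 17 of 22 stem genes, 17 of 20 S phase genes and 12 of 23 mitosis genes were higher. Fabp1 had 653, 813, 378 and 254 CPM against 4138, 6289.9, 5992 and 3665 CPM, with no overlap (−3.40 ± 0.36, edgeR adjusted p = 0.0095). Hes1 was at 1.23 ± 0.10 and Igfbp4 at 1.87 ± 0.12. Anxa10, an annexin, had 3.11, 1.04, 6.08 and 11.4 CPM in stem-like cells and 5.61, 4.62, 62.5 and 227 CPM in Lgr5-positive cells below the Olfm4 condition (−3.69 ± 0.51).

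Over the hours of TGFB1 the stem-like cells had more RNA of regenerative, YAP target and TGFB response genes, in steps from 6 to 24 h, while their summed stem cell RNA moved little. Cells at each time were chosen by the same Lgr5 and Olfm4 rule, so a steady level of genes that go with these markers partly describes the gate. With 1 library per time these are differences between libraries, without a replicate check, and genes are read by size. Among genes with at least 100 CPM in either library, 34 of 1664 were at least 2-fold higher at 6 h than at 0 h (2.04%) and 12 lower (0.721%). At 15 h 64 of 1682 were higher (3.8%) and 21 lower (1.25%), and at 24 h 102 of 1742 were higher (5.86%) and 41 lower (2.35%). In the other cells 17 of 1661 were higher (1.02%) and 6 lower (0.361%) at 6 h, 51 of 1698 higher (3.0%) and 17 lower (1.0%) at 15 h, and 107 of 1744 higher (6.14%) and 33 lower (1.89%) at 24 h. The 0 h library is shared by all these ratios.

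Cym, the gene of the milk-clotting protease chymosin, had 0, 2.87, 63.5 and 399 CPM in stem-like cells. Against a floor of 3 UMIs in the 0 h library, 24 h was at least 556-fold higher. The other cells held 44.5 CPM at 24 h. Clu had 23.0, 170, 554 and 1188 CPM, a 51.7-fold difference at 24 h (95% Poisson interval 42.2 to 63.9). The ratio in the other cells was 59.9. Pmepa1, the feedback inhibitor of TGFB signalling, had 19.9, 232, 377 and 555 CPM (27.9-fold, 22.4 to 35.1), with more than 10 times the 0 h level reached by 6 h. S100a6 was 17.2-fold higher at 24 h (14.8 to 20.2), Timp3, an inhibitor of matrix proteases, went from 14.4 to 61.8, 89.6 and 165 CPM, and Fstl1, a secreted glycoprotein, from 11.9 to 33.6, 97.4 and 127 CPM. The other cells pool all classes outside the gate. In the Olfm4-high cells without Lgr5 among them, Fstl1 had 3.86, 19.7, 53.7 and 87.6 CPM and S100a6 73.3, 155, 546 and 1041 CPM. Rhob, a small GTPase, had 65.4, 314, 511 and 635 CPM (9.71-fold), against a ratio of 3.58 in the other cells. Ctrb1, a digestive protease gene, was 38.6-fold higher (other cells 11.5). Sprr2a1 had 17.7, 279, 966 and 1038 CPM, but it has near-identical copies between which the counting can split reads.

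Genes with less RNA at 24 h in stem-like cells included metallothioneins and some enterocyte genes. Of the 16 enterocyte genes 5 were at least 2-fold lower at 24 h than at 0 h (Fabp2, Sis, Fabp1, Slc2a2 and Apoc3) and 2 at least 2-fold higher (Krt20 by 3.40-fold and Apoa1 by 2.75-fold), with a median log2 ratio of −0.52. In the other cells 0 were lower and 5 higher, with a median of −0.03. Fabp2, an enterocyte fatty acid binding protein, had 346, 322, 138 and 74.0 CPM in stem-like cells, a ratio of 0.21 at 24 h against 0.69 in the other cells. Ccl25, a chemokine that attracts lymphocytes to the gut, had 266, 117, 104 and 65.6 CPM, a ratio of 0.25 against 0.93 in the others. Cldn15, a claudin of the tight junction, had 190, 101, 76.1 and 53 CPM, a ratio of 0.28 against 0.87. The metallothionein Mt2, which binds zinc, had 3398 CPM at 0 h and 882, 900 and 844 CPM later, and Mt1 had 4270, 1294, 1185 and 1361 CPM, so both stood at their lower level by 6 h. Clca3b had 1248 CPM at 0 h and 382 CPM at 24 h, with a like ratio in the other cells (0.31 and 0.34). Of 1290 genes that reached 100 CPM at 0 or 24 h in each of the classes (mitochondrial genes and those with provisional Gm or Rik names left out), 13 had a 24 h ratio at least 2-fold above that of the other cells (1.01%) and 15 at least 2-fold below (1.16%). These differences were not tested.

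**Figure D3:**
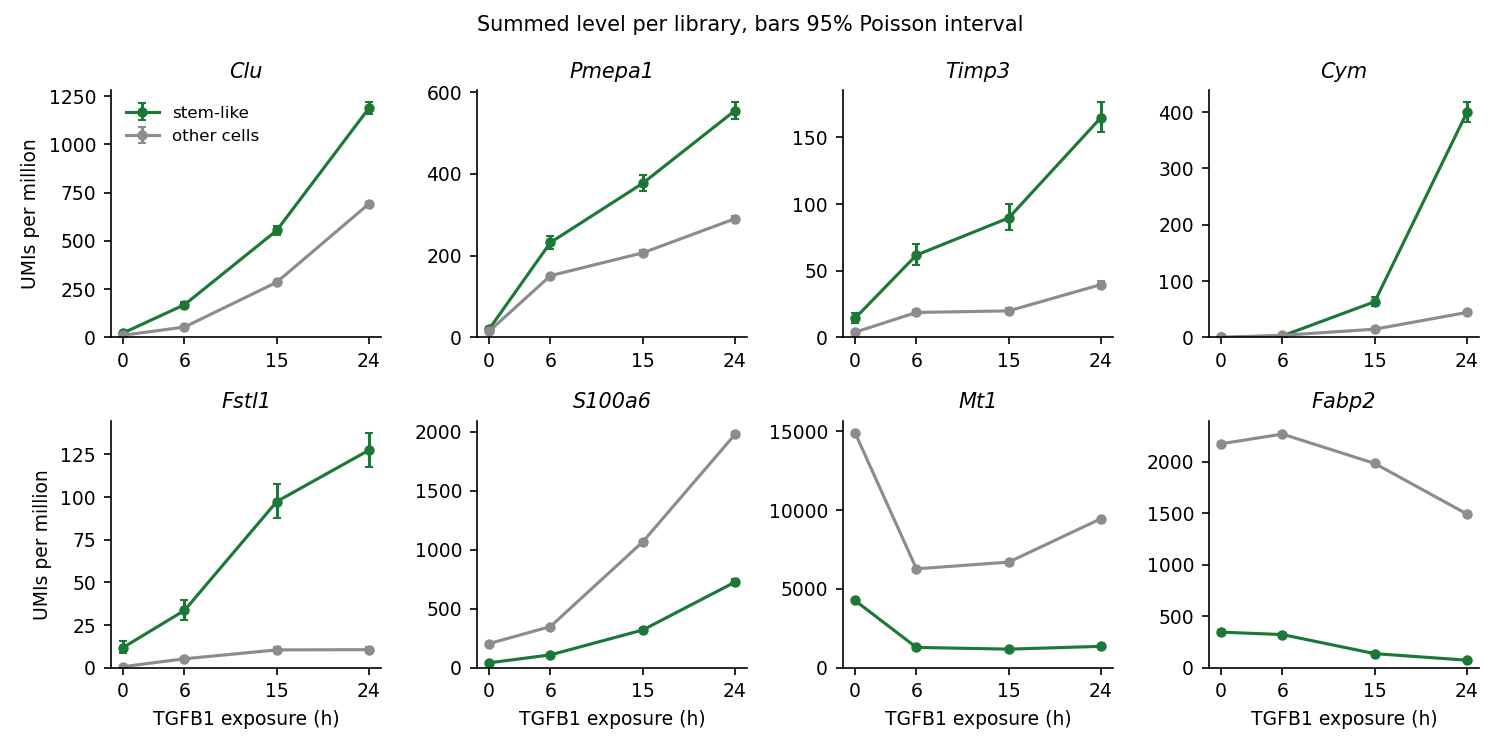
Level of 8 genes (UMIs per 1000000 UMIs of the class, linear axes that start at 0) in stem-like cells and in the other cells of the 0, 6, 15 and 24 h libraries, with 95% Poisson intervals. Clu, Pmepa1, Timp3, Cym, Fstl1 and S100a6 are higher at each later time in the stem-like cells, whereas Mt1 is lower from 6 h on and Fabp2 is lowest at 24 h.

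The lists show where the stem-like cells and the other cells moved alike. Of genes with at least 20 UMIs at 0 or 24 h, 902 of 10839 were at least 2-fold higher at 24 h in stem-like cells (8.32%) and 354 lower (3.27%). In the other cells these were 1688 of 14323 (11.8%) and 664 (4.64%), and the median log2 ratio over all these genes was 0.07 in stem-like and 0.06 in other cells. Of the regenerative list 10 of 11 genes were at least 2-fold higher in stem-like cells, with a median log2 ratio of 3.11 (16 of 20 and 2.44 in the other cells). Of the YAP targets 8 of 10 were higher (median 1.75 and 1.61 in the other cells), with Ccn1 at 416, 514, 961 and 1288 CPM and Ccn2 at 3.35, 10.4, 31.7 and 69.0 CPM. Of the TGFB response genes 10 of 20 were higher (median 1.16 and 0.91 in the others), Skil by 5.47-fold and Smad7 by 3.91-fold, while Id2 was at a ratio of 0.73.

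The stem cell list did not move as a whole: 4 of 22 genes were at least 2-fold higher, 4 lower, and the median log2 ratio was 0.03. Its summed level was 4332, 3910, 4559 and 4542 CPM. Because the gate asked for Lgr5 and Olfm4 at each time, this steady level does not show that the organoids kept stem cell RNA under TGFB1. Within it Fstl1, Gkn3, Igfbp4 and Tnfrsf19 were higher and Aqp4, Clca4b, Myb and Nrn1 lower. Aqp4, a water channel, had 82.4, 48.0, 41.2 and 17.8 CPM, and Gkn3, a gastrokine of the crypt base, 35.9, 121, 244 and 173 CPM. Of the 14 measured Wnt genes, 5 passed 2-fold upward and 0 downward in stem-like cells, with a median of 0.41, against 1 higher and 1 lower in the other cells and a median of 0.07. The 5 were Rnf43 (105 to 255 CPM), Nkd1 (5.51 to 52.8 CPM), Sp5 (2.03-fold), Tcf7 (2.22-fold) and Ctnnb1, the gene of beta-catenin (2.07-fold). The scaffold Axin2 had a ratio of 1.00 and Ccnd2 of 0.52. Summed RNA of the Wnt list differed by a like ratio between 24 and 0 h in both classes, 1.32 in stem-like and 1.27 in other cells. In Olfm4-high cells without Lgr5 it was 1957 CPM at 0 h and 2646 CPM at 24 h.

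Mitosis genes differed in their course between the classes. In stem-like cells 0 of 23 were past 2-fold at 24 h (median −0.25), and in the other cells 17 of 23 were at least 2-fold lower (median −1.21). Their summed level was 2146, 2572, 2429 and 1793 CPM in stem-like cells and 1102, 1354, 690 and 482 CPM in the others, so the ratio of the classes was 1.95, 1.90, 3.52 and 3.72. The typical cell had another course: the median per cell was 9.89, 20.3, 6.67 and 3.23 UMIs per 10000 in stem-like cells and 1.54, 2.65, 0.892 and 0.825 in the others, lowest at 24 h in both. S phase genes summed to 2137, 2163, 1491 and 2063 CPM in stem-like cells and 971, 1056, 596 and 677 CPM in the others. The Olfm4-high cells without Lgr5 had 2387, 2605, 1906 and 1376 CPM of mitosis genes, between the other 2 values at 15 and 24 h. The 10 dissociation response genes moved with time as well, with 2277, 2500, 3360 and 4202 CPM in stem-like cells and 1843, 2001, 2634 and 2741 CPM in the others, and 4 of 10 at least 2-fold higher at 24 h (3 of 10 in the others). Their part in the other differences was not tested.

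**Figure D4:**
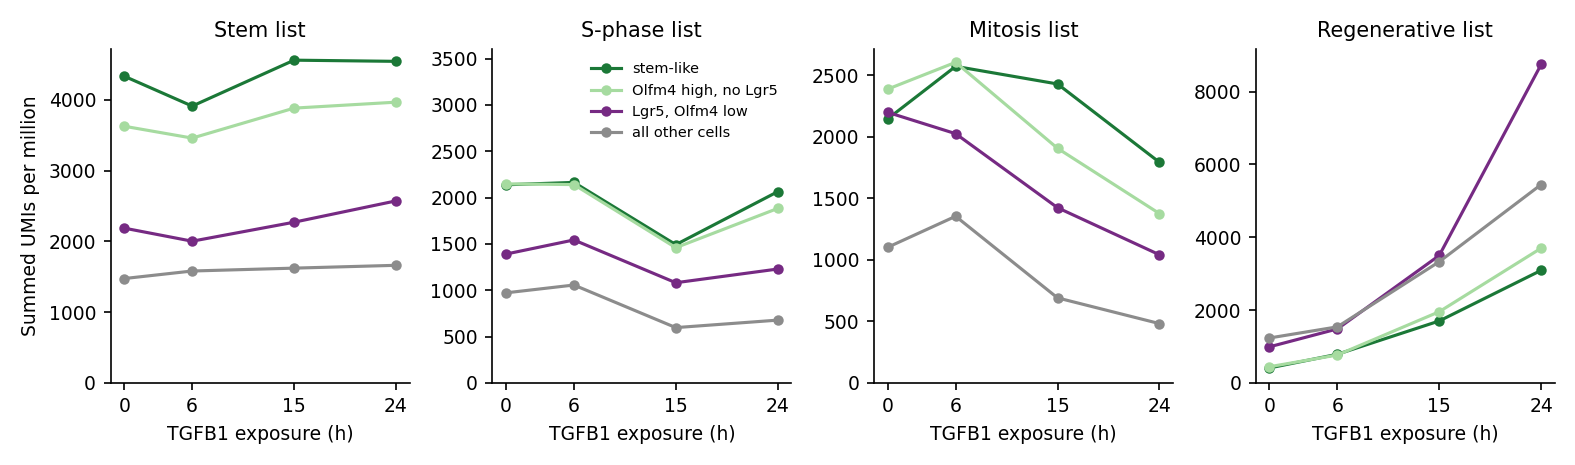
Summed CPM of the stem cell, S phase, mitosis and regenerative lists at 0, 6, 15 and 24 h of TGFB1 in stem-like cells, in Olfm4-high cells without Lgr5, in Lgr5 cells below the Olfm4 condition and in all other cells (lines, the last including the middle classes). At 24 h summed mitosis RNA is highest in the stem-like cells (1793 CPM against 482 CPM in all other cells), which at 0 h lie below both middle classes (2146 CPM against 2387 and 2199 CPM), and regenerative RNA is higher at each later time on each line.

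Shares of cells with a UMI, compared at 2000 UMIs per cell, show how widely these genes were detected. Clu was found in 4.08, 23.8, 53.2 and 76.7% of stem-like cells, against 1.63, 6.61, 22.1 and 36.2% of the other cells (13.2, 48.1, 84.3 and 97.4% against 5.13, 15.5, 40.4 and 66.0% with all UMIs). Pmepa1 was found in 5.04, 35.9, 50.8 and 65.8% of stem-like cells and 2.82, 22.7, 28.1 and 34.5% of the others. Cym was found in 0, 0.915, 9.04 and 33.9% of stem-like cells and in 0, 0.833, 2.39 and 5.93% of the others. Mki67 was found in 26.6, 33.0, 26.3 and 19.2% of stem-like cells and 14.0, 17.7, 8.91 and 5.62% of the others. Clu and Mki67 were detected together: at 24 h Clu was found in 44 of 60 stem-like cells with a Mki67 UMI (73.3%, 60.3 to 83.9%) and in 196 of 253 without (77.5%, 71.8 to 82.5%). Cym was found in 25 of the 60 (41.7%, 29.1 to 55.1%) and 81 of the 253 (32.0%, 26.3 to 38.1%), with intervals that overlap.

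**Figure D5:**
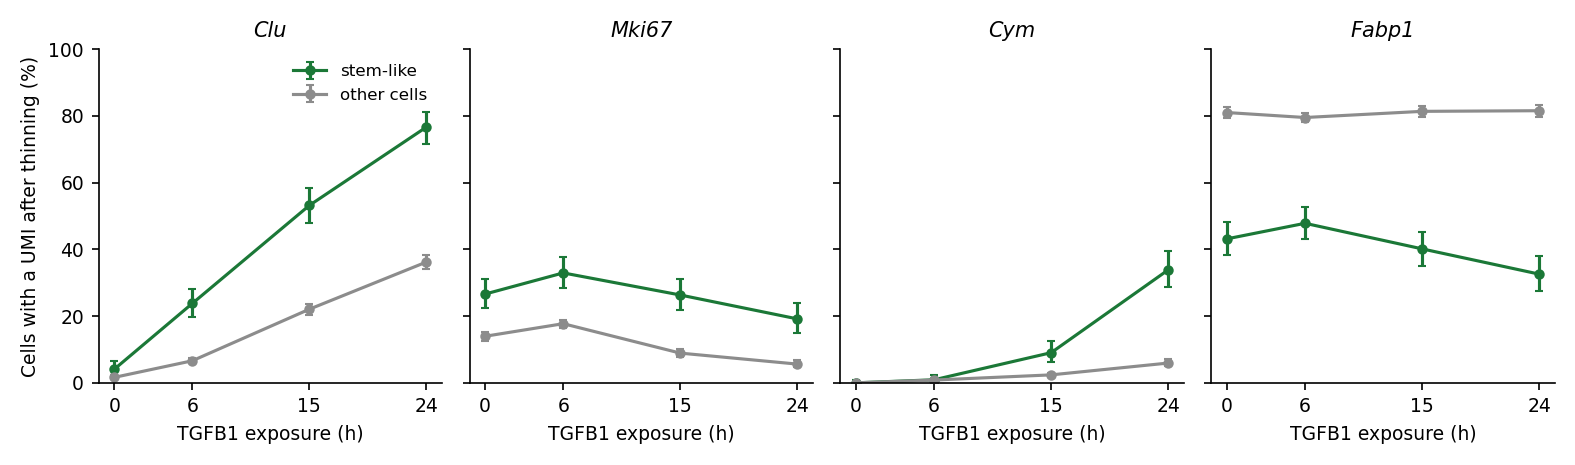
Share of cells (%) with at least 1 UMI of Clu, Mki67, Cym or Fabp1 after thinning to 2000 UMIs, in stem-like and other cells of the 4 libraries, with 95% exact binomial intervals. At 24 h Clu was detected in 76.7% of stem-like cells and 36.2% of the others, and Fabp1 in 32.6% and 81.6%.

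The gate also found cells in the sorted crypt libraries. It took 179 of 1846 cells of the non-irradiated mouse (9.70%), and 23 of 719 (3.20%) and 4 of 699 (0.572%) of the 2 libraries taken 56 h after 12 Gy. The 179 cells had 3152 CPM of stem list RNA, 2423 CPM of mitosis RNA, 168 CPM of regenerative RNA and 88.6 CPM of YAP target RNA. The irradiated organoid cells at 0 h had 4332, 2146, 409 and 560 CPM of these lists. Clu was found in 2 of the 179 cells at 2000 UMIs (1.12%). Strain, sort, culture and radiation differ between the crypt and organoid libraries and cannot be told apart.

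Bulk libraries of irradiated organoids tested whether the genes that were higher in stem-like cells at 24 h also differ with TGFB1 in separate samples. FPKM values were compared on the log2(FPKM + 1) scale with limma (Benjamini-Hochberg adjustment), at 2 ng/mL rather than 1 ng/mL. In bulk, fewer cells of a type and less RNA per cell cannot be told apart. Bulk RNA also comes from all cells, and stem-like cells were 12.5% of the kept single cells. In the other cells 107 of 1744 genes were at least 2-fold higher at 24 h as well. The bulk values therefore cannot say in which cells a gene differed. At the day 7 collection 4031 of 11258 genes were higher with TGFB1 (35.8%) and 4464 lower (39.7%), and at day 11 3713 of 11479 were higher (32.3%) and 3622 lower (31.6%). Of the 102 genes at least 2-fold higher at 24 h in stem-like cells, 97 remain without provisional Gm names, and 85 of these were tested at day 7. There 84 were higher and 0 lower, with a median of 1.49 against −0.03 over all genes. At day 11 67 of 84 were higher and 6 lower (median 0.73). The 41 genes at least 2-fold lower gave 34 names in the same way, with 1 name held by 2 of them, and 23 of 29 tested were lower at day 7 and 23 of 29 at day 11.

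Several named genes of the stem-like cells had all 3 TGFB1 libraries apart from all 3 vehicle libraries. Timp3 had 1.38, 2.26 and 1.79 FPKM in vehicle and 14.4, 14.1 and 15.1 FPKM in TGFB1 libraries at day 7 (2.48 ± 0.10, limma adjusted p = 8.4e-09). Fstl1 had 0.617, 0.862 and 0.595 FPKM against 8.36, 8.88 and 6.95 FPKM (2.42 ± 0.10). Arl4c, a small GTPase that was higher in stem-like cells (log2 2.61 ± 0.17), had 1.84, 1.75 and 2.00 FPKM against 23.8, 24.3 and 24.3 FPKM at day 7 and 1.23, 1.16 and 1.07 FPKM against 27.0, 21.7 and 23.8 FPKM at day 11. Ccl25 went the other way, with 430, 462 and 449 FPKM against 316, 297 and 285 FPKM at day 7 (−0.58 ± 0.05) and 348, 378 and 436 FPKM against 74.2, 74.4 and 75.5 FPKM at day 11 (−2.35 ± 0.10). Cldn15 was lower as well (−0.65 ± 0.03 at day 7 and −1.56 ± 0.10 at day 11). None of these groups overlapped.

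The wider profile of the stem-like cells behaved differently at the 2 collections. Of the genes at least 2-fold higher in stem-like than in other cells, 543 of 920 were lower with TGFB1 at day 7 (59.0%) and 265 higher (28.8%), with a median of −0.43. At day 11, 311 of 990 were lower (31.4%) and 364 higher (36.8%), near the shares over all genes. All 43 S phase and mitosis genes were lower at day 7 (median −1.57), and 14 were higher and 8 lower at day 11. Of the genes at least 2-fold lower in stem-like cells, 659 of 1347 were higher at day 7 (48.9%) and 400 lower (29.7%), while at day 11 271 of 1283 were higher (21.1%) and 678 lower (52.8%). The difference between the collections was not tested, and the tables were normalized separately.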

How the data were processed

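The authors' single-cell files hold deposited expected counts, in UMIs per gene (STARsolo is named, without a role, in the submitters' processing notes), with fractions where a UMI fits several genes. The bulk tables deposited by the authors hold FPKM. The sources used here do not give the genome build of either. Cells with at least 500 UMIs and at most 20% mitochondrial UMIs were kept. Class sums, rounded to whole numbers, were tested with edgeR 4.0.16 (TMM, filterByExpr, robust quasi-likelihood, library as a term) in R 4.3.3, and bulk values with limma 3.58.1 (trend, robust, mean FPKM of at least 1), adjusted by Benjamini-Hochberg over all genes tested, at 0.05. On simulated data the 3 edgeR fits recovered 82.0, 87.5 and 75.5% of genes changed by 1 log2 unit. The simulation changed 200 genes, with a set dispersion and the same effect in all 4 libraries. These rates therefore do not give the power of the real contrasts. Named genes are, per cell contrast, the 10 largest differences in each direction with adjusted p under 0.05, 1 direction in 4 libraries and at least 50 CPM. Over time they are the 10 largest rises and 10 largest falls at 24 h and a shorter list of each at 6 h. Genes whose 24 h ratio differed most between stem-like and other cells were also named. The genes ranked over time had at least 100 CPM and 20 UMIs in the higher library. Genes of the 18 lists were added. Mitochondrial, Gm and Rik names were left out of the ranked genes. The members and lists were chosen with earlier results of these data known. Alternatives were DESeq2 1.42.0, thinning, other gates and filters, and leaving out libraries.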

Additional observations from a re-analysis of the deposited data

Results flagged for a closer look

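Of the genes named for the stem-like cells, 6 went in opposite directions with TGFB1 in the bulk libraries of the 2 collections, with all 3 TGFB1 libraries apart from all 3 vehicle libraries each time. The difference between the collections was not tested. Olfm4, a marker of the gate, was lower at day 7 (log2 −1.45, 666 FPKM in vehicle and 244 FPKM in TGFB1 libraries) and higher at day 11 (0.94, 238 and 450 FPKM). Lgr5, the other marker of the gate, is not among the 6. It was lower with TGFB1 at day 7 (−1.21, 21.8 and 8.85 FPKM) and at day 11 (−0.99, 59.0 and 29.2 FPKM), without overlap of the libraries. Axin2 was lower at day 7 (−0.87) and higher at day 11 (0.39), and so was Ifitm3, an interferon-induced membrane protein (−0.91 and 0.45). Akr1c19, an aldo-keto reductase, was at −0.74 and 0.81. Igfbp4 was higher at day 7 (0.85) and lower at day 11 (−0.93). Ctrb1 had the widest gap, at 5.20 and −0.89.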

How the results depend on the processing

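The gate share of 14.2, 10.2, 13.0 and 14.1% at 0, 6, 15 and 24 h became 5.87, 3.86, 5.05 and 5.18% after thinning, 12.5, 9.08, 11.8 and 11.4% with at least 40 Olfm4 UMIs per 10000, and 7.44, 3.69, 6.37 and 10.2% with at least 2 Lgr5 UMIs. With at most 10% mitochondrial UMIs it was 14.3% at 15 h and 15.9% at 24 h. Against the other cells, 6027 of 10346 genes were called in thinned cells, and 9054 of 13975 in all. Leaving out 1 library gave 7863 to 8645. Against Olfm4-high cells without Lgr5 (379 genes), DESeq2 called 72, edgeR without the library term 0, thinned cells 78, cells between the UMI quartiles of the stem-like cells 202, an Olfm4 limit of 10 gave 692 and of 40 gave 145, and leaving out 1 library 228 to 325. The 13 genes at least 2-fold apart became 2 with DESeq2, 34 without the filter, 0 without the library term, 8 thinned, 26 and 7 with the Olfm4 limits of 10 and 40, and 12 to 21 without 1 library. Against Lgr5 cells below the Olfm4 condition (3037), DESeq2 called 1830, the fit without the library term 1274, thinned cells 1149, and 1 library less 1970 to 3021. The 984 genes at least 2-fold apart became 563 thinned and 607 with the Olfm4 limit of 40. Directions reversed for Cd74 against other cells (0.26) and Rpl36a-ps1 against Olfm4-high cells (0.062) within those quartiles, for Chaf1b against Lgr5 cells when thinned (−0.041), and for Fabp1 (−0.53) and Reg1 (−0.23) in day 7 bulk with quantile normalization. The cause was not tested. With the replicate number as a block, 8417 and 7351 bulk genes were called at day 7 and day 11. Same-numbered samples correlated by −0.002 to 0.25 and −0.17 to 0.10, so the numbers were not read as pairs. Leaving out 1 bulk replicate gave 8100 to 8265 and 6464 to 7591. Of the genes read over time, 80 values stayed within counting error and 20 moved. Depth limits the Lgr5 condition, as the thinned shares show.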

Other observations

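The few stem-like cells of the irradiated crypts had more regenerative RNA than those of the non-irradiated crypt. The regenerative list summed to 168 CPM in the 179 cells of the non-irradiated mouse and to 887 and 734 CPM in the 23 and 4 cells taken 56 h after 12 Gy. S100a6 had 1.77 CPM (5 UMIs, 95% Poisson interval 0.575 to 4.14) without irradiation and 263 CPM (228 to 303) and 224 CPM (133 to 354) after it. Anxa2, a membrane-binding annexin, had 53.9 CPM and then 238 and 249 CPM. Clu had 1.42 CPM (4 UMIs), 28.1 CPM (21 UMIs) and 0 UMIs in the library with 4 such cells. The Paneth list went the other way, with 2401 CPM without irradiation and 138 and 370 CPM after it, and S phase genes summed to 1539, 2944 and 3484 CPM. The other cells had 2690, 771 and 938 CPM of Paneth RNA and 1403, 2184 and 1887 CPM of S phase RNA. These are values of 3 libraries, with no test.

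Some further genes of the stem-like organoid cells, with their levels over time, are given here. Reg3b, an antibacterial lectin, was highest at 6 h, with 31.6, 190, 136 and 96.2 CPM at 0, 6, 15 and 24 h, while the other cells had 643, 1186, 3361 and 2905 CPM. Igsf9, an adhesion molecule, had 21.3, 51.7, 103 and 124 CPM, a ratio of 5.84 at 24 h against 2.27 in the other cells. Sord, the sorbitol dehydrogenase gene, had 115, 43.8, 40.3 and 34 CPM. Cldn3, a claudin, had 191, 112, 103 and 64.4 CPM, a ratio of 0.34 against 0.95 in the other cells. Atf3, a stress transcription factor on the dissociation list, had 99.6, 108, 210 and 397 CPM.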
